A study of Mus musculus with 6 samples.

Results

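The genes described here are 45 genes of fatty acid oxidation and of the peroxisome proliferator-activated receptors (PPARs), taken by symbol from the 55487 genes counted in bulk RNA-seq of cultured mouse microglia. They comprise 9 genes of fatty acid uptake and activation, 4 of the carnitine shuttle, 15 of mitochondrial oxidation, 3 of electron transfer, 6 of peroxisomal oxidation, 6 regulators and 2 others grouped as PPAR target genes. Microglia were shaken off mixed glial cultures of the cortex of pups at postnatal days 1 to 3, which had been grown with the growth factor GM-CSF. The comparison asks which transcripts differ once the nuclear receptor REV-ERBα, encoded by Nr1d1, is deleted. All 6 cultures came from the CAG::CreERT2; Nr1d1 fl/fl line, in which the broadly active CAG promoter drives a Cre recombinase that 4-hydroxytamoxifen (4-OHT) releases into the nucleus. The 3 control cultures (Cre−) carried the floxed gene without Cre, and the 3 knockout cultures (Cre+) carried both. All of them, controls included, received 1.5 μM 4-OHT for 2 days, so exposure to the drug was shared and Cre set the groups apart. The labels number the samples 1 to 3 in each group, and p-values measure the spread between these samples.

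Fatty acids enter cells through membrane transporters, are carried by binding proteins and are activated to acyl-CoA by acyl-CoA synthetases. Long chains cross into mitochondria as carnitine esters, where a repeating cycle of dehydrogenation, hydration, a further dehydrogenation and thiolysis shortens them, whereas very long and branched chains are first shortened in peroxisomes. The PPARs are lipid-sensing nuclear receptors that bind DNA with retinoid X receptors and activate many of these genes, with PPARγ prominent in macrophages, and REV-ERBα is a repressor of the same receptor superfamily that recruits corepressors.

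Transcripts of fatty acid oxidation were at similar summed levels in Cre− and Cre+ microglia, and single members moved in both directions. Of the 42 members with enough reads to be tested, 4 passed an adjusted p-value of 0.05 in edgeR's quasi-likelihood test, 2 higher and 2 lower in Cre+ cells. Acsl4, an acyl-CoA synthetase that prefers polyunsaturated fatty acids, and Hadh, a dehydrogenase of the mitochondrial cycle, rose. Adipor1, a receptor of the adipocyte hormone adiponectin, and Eci1, which prepares unsaturated fatty acids for oxidation, fell. These 4 genes are 9.52% of the members tested, where 5.07% of all 11429 genes tested passed (579 genes, with 2.5% higher and 2.56% lower). The difference between these shares was not tested. The median log2 fold change (Cre+ over Cre−) of the members was 0.02, beside 0.00 for all genes tested, with 25 members above 0 and 17 below. These signs were not stable, since 18 members lay above 0 and 24 below without Cre+ replicate 3 (median -0.01), and 21 on each side without Cre− replicate 3 or without Cre+ replicate 2.

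The sizes were small throughout. Members' log2 fold changes ran from -0.52 to 0.25, and 28 of the 42 lay within 0.15 of 0. The 3 libraries of each group stood apart for 12 members, 6 higher and 6 lower, or 28.6%, where 24% of all genes tested were apart in this way. Summed over all members, expression was 2714 ± 32.0 CPM in Cre− against 2706 ± 35.0 CPM in Cre+ cells (SD, n = 3 per group), with overlap. CPM stands for counts relative to the library total, scaled by the trimmed mean of M values (TMM). By role, the regulators were lower in every Cre+ library (258 ± 8.49 against 221 ± 7.06 CPM, a sum of which Adipor1 holds most). Uptake and activation were higher (589 ± 9.64 against 602 ± 2.36 CPM), but only just. Their highest Cre− library was at 599.0 CPM and their lowest Cre+ library at 599.9 CPM. Within that sum Acsl4 alone went from 129 to 153 CPM, and 4 of the 9 members had log2 fold changes below 0. Mitochondrial (798 ± 4.89 against 817 ± 14.1 CPM) and peroxisomal oxidation (601 ± 14.3 against 603 ± 19.6 CPM) overlapped. Members below the threshold are given by their values, since missing it does not show that a gene was at the same level in both groups. Transcript levels in bulk RNA cannot tell fewer expressing cells from less RNA per cell.

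**Figure D1:**
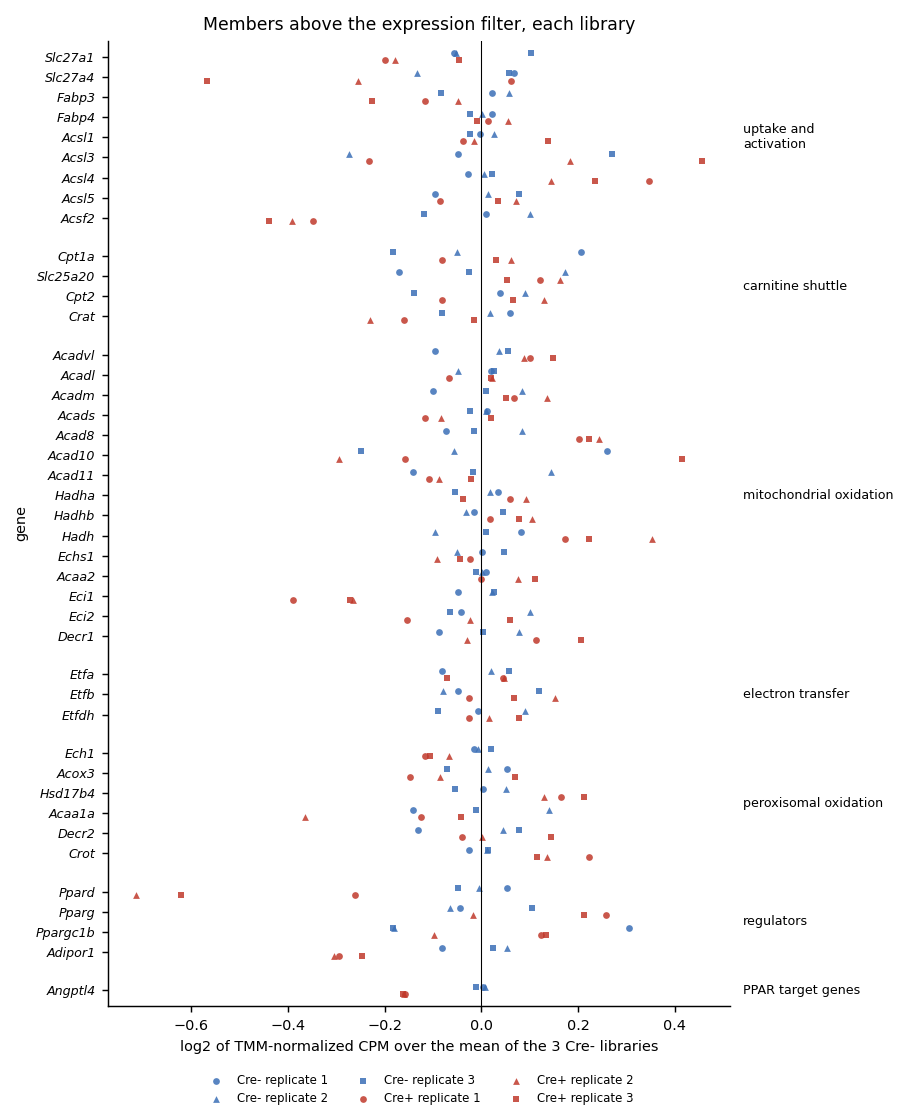
Each point is 1 library, and its place is the log2 of TMM-normalized CPM over the mean of the 3 Cre− libraries (horizontal axis) for each of the 42 members tested (vertical axis, by role), with Cre− in blue, Cre+ in red and a marker shape for each replicate number. Cre+ points of Adipor1, Eci1 and Angptl4 all lie left of the Cre− points, those of Acsl4, Hadh and Acad8 all lie right of them, and for most genes the colours mix.

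The libraries held 87545868 to 93942161 counts in Cre− and 93701215 to 110909129 in Cre+ cells, and the cultures of a group varied by a coefficient of 10.0% at the common dispersion. Nr1d1, the targeted gene, was at 2.35, 1.20 and 1.64 CPM in Cre− against 1.00, 0.945 and 1.08 CPM in Cre+ cells, counted over exons that include undeleted ones. Its log2 fold change of -0.77 (SE 0.25) fell short of the threshold (adjusted p = 0.094 in edgeR's test). It was -0.50 without Cre− replicate 1 (adjusted p = 0.31) and -0.98 without Cre− replicate 2 (adjusted p = 0.041), the one omission with which it passed. Of 10 microglia markers 9 passed the expression filter, and the summed level of all 10 was 4897 to 5101 CPM in Cre− against 4782 to 4892 CPM in Cre+ cells. The largest, Tyrobp, was lower in every Cre+ library (means of 2457 and 2275 CPM). Itgam was higher (104 and 118 CPM) and the only one called (log2 fold change 0.18, adjusted p = 0.046 in edgeR's test). Ptprc was also higher in every Cre+ library (278 and 306 CPM), and the remaining markers overlapped. The homeostatic markers P2ry12 and Tmem119 were near the filter, at 0.61 and 2.95 CPM in Cre− cells. Summed markers of astrocytes (6 genes, 11.3 to 14.9 CPM over all libraries) and oligodendrocytes (7 genes, 37.3 to 44.8 CPM) overlapped between the groups. The summed endothelial markers (5 genes) were at 20.8 to 22.8 CPM in Cre− against 24.3 to 27.9 CPM in Cre+ cells, nearly all of it Flt1 (20.1 and 25.2 CPM), whereas the means of Kdr, Pecam1, Cdh5 and Cldn5 were lower in Cre+ cells. Summed neuronal (6 genes) and fibroblast and mural (6 genes) markers were lower in Cre+ cells, at 2.38 to 2.48 against 2.96 to 3.54 CPM and 0.833 to 1.07 against 1.36 to 2.21 CPM. Of 5 adipocyte markers none passed the filter and Adipoq had no count in any library. More genes had counts in Cre− libraries (32459 to 35166 at the depth of the smallest library) than in Cre+ libraries (29731 to 30126), and the part of these differences in the results was not tested.

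Per kilobase of exon, the abundant members came from several steps of the pathway. Etfa, a subunit of the flavoprotein that takes electrons from the acyl-CoA dehydrogenases, led with 78.8 CPM per kb in Cre− and 79.2 CPM per kb in Cre+ cells. Next were Ech1, an isomerase for unsaturated chains, at 70.5 and 65.9 CPM per kb, and the mitochondrial thiolase Acaa2 at 66.9 and 69.9 CPM per kb. Fabp3 (51.2 and 46.8 CPM per kb) and Fabp4 (37.8 and 38.3 CPM per kb), cytosolic carriers of fatty acids, were also among the 7 most abundant. The receptors stood lower, with Pparg at 9.47 and 10.5 CPM per kb and Ppard at 0.649 and 0.453 CPM per kb. At the bottom were Ppara and the coactivator Ppargc1a, which drive fatty acid oxidation in liver and muscle, at 0.0546 and 0.0682 CPM per kb in Cre− cells, and the kinase Pdk4 at 0.0268 CPM per kb. The length is that of all annotated exons of a gene, so genes with long and little-used exons rank too low.

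**Figure D2:**
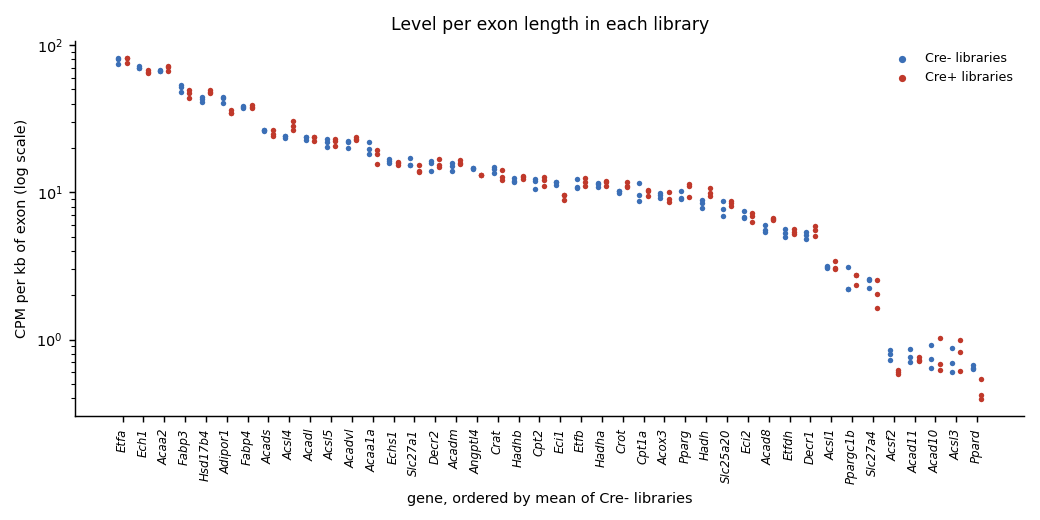
Each point is 1 library, with CPM per kb of exon on a log scale (vertical axis) for the 42 members tested, ordered by the mean of the Cre− libraries (horizontal axis, Cre− in blue and Cre+ in red). Levels span from Etfa at 78.8 to Ppard at 0.649 CPM per kb in Cre− cells, and for most genes blue and red points lie together.

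Fatty acid uptake and activation had 9 members, all tested, and 1 of them changed. Acsl4 (ENSMUSG00000031278, on the minus strand of chromosome X of GRCm38, from 142317993 to 142390535) was at 126, 129 and 131 CPM in Cre− replicates 1, 2 and 3, against 164, 142 and 152 CPM in Cre+ replicates 1, 2 and 3. Every Cre+ library lay above every Cre− library, and Cre+ replicate 1 was the highest. The log2 fold change was 0.24 (SE 0.05, 95% interval 0.13 to 0.36, adjusted p = 0.015 in edgeR's quasi-likelihood test), a rise of 18.5% in mean CPM. The call was lost without Cre− replicate 1 and without Cre+ replicate 1, at log2 fold changes of 0.22 and 0.19.

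The other long-chain synthetases were not called. Acsl5 was at 106 ± 6.39 CPM in Cre− against 107 ± 6.03 CPM in Cre+ cells (SD, n = 3 per group), and Acsl1 was at 32.5 ± 0.568 and 33.2 ± 2.24 CPM. Acsl3, the lowest of the family, was at 3.05, 2.61 and 3.80 CPM in Cre− against 2.68, 3.58 and 4.33 CPM in Cre+ cells, or 0.16 on the log2 scale (SE 0.20, 95% interval -0.27 to 0.59). Acsl4 and Acsl5 made up most of these 4 genes per kilobase of exon, with Acsl4 at 48.1% in Cre− and 52.1% in Cre+ cells and Acsl5 at 44.2% and 40.6%. Acsl1 has 10483 bases of annotated exon, against 5405 for Acsl4 and 4864 for Acsl5, so its share of 6.25% in Cre− cells may be too low. Acsl5 shares 404 bases of exon with Zdhhc6 on the other strand, and no source used here says that reads were counted by strand, so reads there cannot be told apart.

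None of the transporters and carriers passed the threshold. The transport protein Slc27a1 was at 92.7 ± 5.94 and 84.1 ± 4.89 CPM, a log2 fold change of -0.14 (SE 0.06, adjusted p = 0.22 in edgeR's test). Slc27a4, a second one, was at 11.3, 9.85 and 11.2 CPM in Cre− against 11.3, 9.06 and 7.29 CPM in Cre+ cells, a log2 fold change of -0.23 (SE 0.14) that was -0.09 without Cre+ replicate 3 and -0.40 without Cre+ replicate 1. Fabp4, carrier of fatty acids in adipocytes and macrophages, was at 170 ± 2.58 and 172 ± 3.82 CPM, and its 95% interval of -0.07 to 0.11 on the log2 scale was among the narrower ones. Acsf2, a synthetase located in mitochondria, was low and lay apart in the groups, at 2.74, 2.91 and 2.504 CPM in Cre− against 2.14, 2.07 and 2.00 CPM in Cre+ cells, but its log2 fold change of -0.39 (SE 0.18) had an adjusted p of 0.25 in edgeR's test. The pseudogene Gm5540 matches 1848 bases of the Acsf2 transcript at 99.0% and was itself at 0.367 CPM in Cre− against 0.0800 CPM in Cre+ cells, and reads of the pair cannot be told apart there.

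Of the 4 genes of the carnitine shuttle, none was called and none was apart between the groups. Cpt1a, carnitine palmitoyltransferase of the outer membrane and the rate-limiting step for the entry of long chains, was at 87.9, 73.6 and 67.1 CPM in Cre− against 72.0, 79.6 and 77.8 CPM in Cre+ cells. The Cre− libraries spread on both sides of the Cre+ libraries. Its log2 fold change came to 0.00 (SE 0.08, 95% interval -0.16 to 0.17, adjusted p = 0.99 in edgeR's test), and the sign depended on which library was left out, from -0.08 without Cre− replicate 3 to 0.11 without Cre− replicate 1. The translocase Slc25a20 (log2 fold change 0.11), the inner-membrane transferase Cpt2 (0.04) and the acetyltransferase Crat (-0.13) had adjusted p-values of 0.49, 0.85 and 0.27 in edgeR's test. Summed, the shuttle was at 219 ± 14.6 CPM in Cre− against 216 ± 7.17 CPM in Cre+ cells.

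Mitochondrial oxidation held 15 members, all tested, with 1 risen, 1 fallen and 13 not called. Hadh (ENSMUSG00000027984, on the minus strand of chromosome 3, from 131233419 to 131272101), which dehydrogenates medium and short 3-hydroxyacyl-CoA, was at 44.4, 39.2 and 42.2 CPM in Cre− against 47.3, 53.6 and 49.0 CPM in Cre+ cells. All Cre+ libraries lay above the Cre− libraries, with the smallest gap between Cre− replicate 1 and Cre+ replicate 1. The log2 fold change was 0.25 (SE 0.07, 95% interval 0.11 to 0.40, adjusted p = 0.044 in edgeR's quasi-likelihood test). It was close to the threshold and was lost without Cre− replicate 2 or 3 and without Cre+ replicate 2 or 3, at log2 fold changes of 0.20 to 0.29 when single libraries were omitted.

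Eci1 (ENSMUSG00000024132, on the plus strand of chromosome 17, from 24426641 to 24439348), the isomerase that shifts the double bond of unsaturated chains, was at 23.9, 25.1 and 25.1 CPM in Cre− against 18.8, 20.5 and 20.4 CPM in Cre+ cells. The groups were apart by more than either varied within itself. The log2 fold change was -0.31 (SE 0.08, 95% interval -0.47 to -0.15, adjusted p = 0.028 in edgeR's quasi-likelihood test). Its direction was the same in every fit that left out 1 library (-0.34 to -0.27), but it was called in 1 of these 6, the one without Cre− replicate 1. Eci2, a related isomerase of peroxisomes and mitochondria, was at 38.6 ± 2.44 and 37.7 ± 2.78 CPM.

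The dehydrogenases that open the cycle showed no common direction. Acadvl, Acadl, Acadm and Acads, for very long, long, medium and short chains, had log2 fold changes of 0.11, -0.01, 0.08 and -0.06, with 95% intervals that included 0 in each case. Acadvl shares 42.9% of its exon length with Dvl2 on the other strand, which was at 6.30 CPM in Cre− cells against 57.6 CPM for Acadvl. Acad8, an isobutyryl-CoA dehydrogenase of valine breakdown, was at 22.2, 24.8 and 23.2 CPM in Cre− against 26.9, 27.7 and 27.3 CPM in Cre+ cells. The Cre+ libraries lay close together and above the others, and the log2 fold change of 0.22 (SE 0.07) was short of the threshold at an adjusted p of 0.098 in edgeR's test. Acad10 and Acad11 were below 10 CPM, and the 0.02 of Acad10 had an interval of -0.38 to 0.43. Acad10 shares 1106 bases at 96.8% identity with Acad12, so its counts are uncertain.

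The trifunctional protein, which carries out the remaining steps for long chains, differed little between the groups. Its subunit Hadha was at 98.3 ± 3.15 and 101 ± 4.68 CPM and its subunit Hadhb at 79.7 ± 2.24 and 83.5 ± 2.53 CPM, with log2 fold changes of 0.04 and 0.07. Hadhb holds a stretch of sequence found in many other transcripts. Echs1, Acaa2 and Decr1, a hydratase, a thiolase and a reductase, were at -0.05, 0.06 and 0.10 on the same scale. The 3 genes of electron transfer, Etfa, Etfb and Etfdh, were at 0.01, 0.07 and 0.02. Their summed level was 198 ± 7.33 CPM in Cre− against 199.7 ± 5.52 CPM in Cre+ cells. Etfb shares 53.0% of its exon length with Gm45233, a gene on the same strand with no counts. Reads there cannot be told apart, so the level of Etfb may be counted too low.

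**Figure D3:**
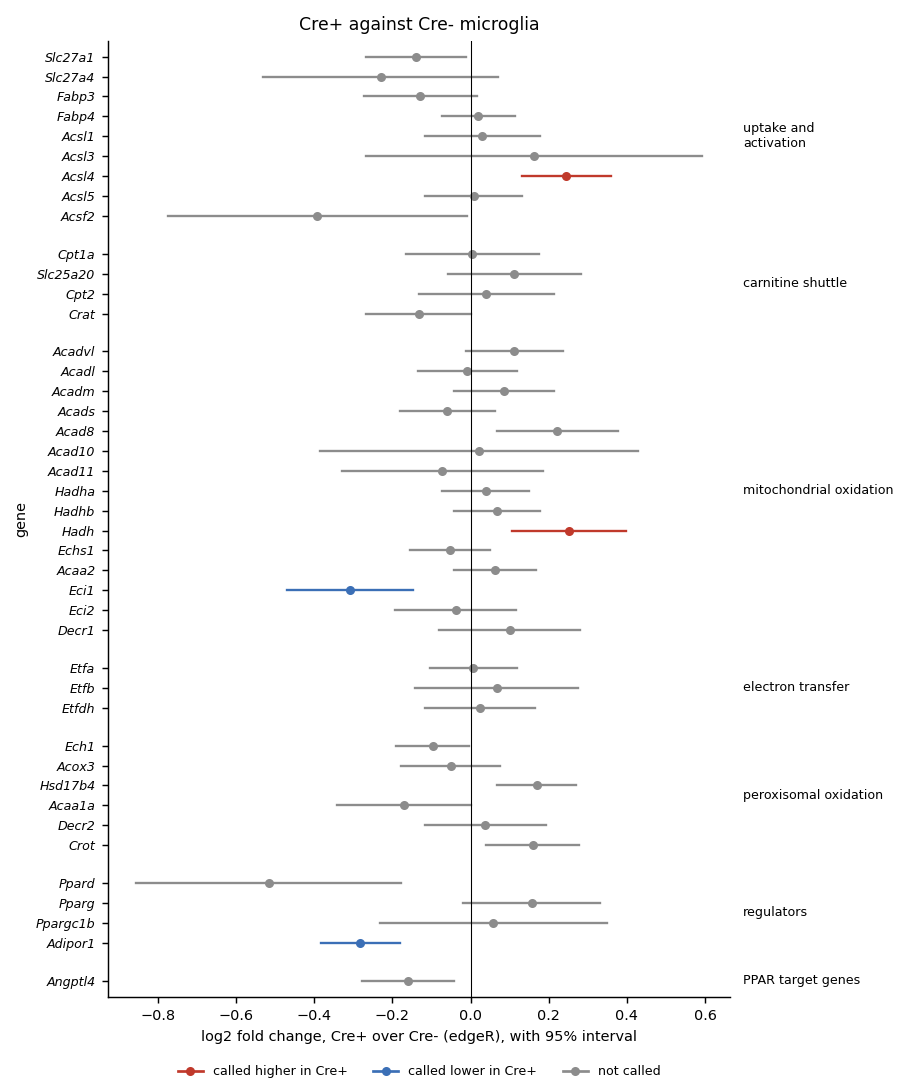
Points are edgeR's log2 fold changes, Cre+ over Cre− (horizontal axis), with 95% intervals as lines, for the 42 members tested (vertical axis, by role), in red where called higher, blue where called lower and grey otherwise. Acsl4 and Hadh lie to the right and Eci1 and Adipor1 to the left, most other intervals include 0, and the widest belong to low genes such as Acsl3, Acad10 and Ppard.

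Peroxisomal oxidation had 6 members, all tested and none called. Hsd17b4, the bifunctional enzyme of the peroxisomal cycle, came nearest, at 146, 151 and 140.5 CPM in Cre− against 164, 159.6 and 169 CPM in Cre+ cells. The groups did not overlap, and the log2 fold change was 0.17 (SE 0.05, 95% interval 0.07 to 0.27, adjusted p = 0.053 in edgeR's test). The call depended on the analysis, since Hsd17b4 passed the threshold with library totals, with DESeq2's test (adjusted p = 0.022) and with looser filters on low counts. Crot, which makes carnitine esters of medium chains for export, was also apart and higher, at 55.1 ± 0.812 and 61.5 ± 2.45 CPM (log2 fold change 0.16, adjusted p = 0.12 in edgeR's test). Ech1 was apart and lower, at 161 ± 2.06 and 151 ± 2.77 CPM (log2 fold change -0.10, adjusted p = 0.24 in edgeR's test). The thiolase Acaa1a (-0.17), the oxidase Acox3 (-0.05) and the reductase Decr2 (0.04) overlapped between the groups, and Acaa1a has a near copy, Acaa1b, that is 98.7% identical over 783 bases and was at 1.04 CPM in Cre− cells.

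Among the regulators, Adipor1 had the smallest adjusted p-value of all members. Adipor1 (ENSMUSG00000026457, on the plus strand of chromosome 1, from 134415378 to 134433351) was at 203, 222 and 218 CPM in Cre− against 175, 174 and 181 CPM in Cre+ cells. The highest Cre+ library was below the lowest Cre− library. The log2 fold change was -0.28 (SE 0.05, 95% interval -0.38 to -0.18, adjusted p = 0.0024 in edgeR's quasi-likelihood test), a drop in the mean from 214 ± 10.3 to 176 ± 3.84 CPM (SD, n = 3 per group). Adipor1 passed the threshold in all 14 alternative analyses, with log2 fold changes of -0.33 to -0.25 when single libraries were omitted. It was nearest to the threshold without a filter on low counts, at -0.20 (adjusted p = 0.043 in edgeR's test). None of the 4 genes called shares exon bases with another annotated gene or a stretch of at least 100 bases at 95% identity with another transcript.

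**Figure D4:**
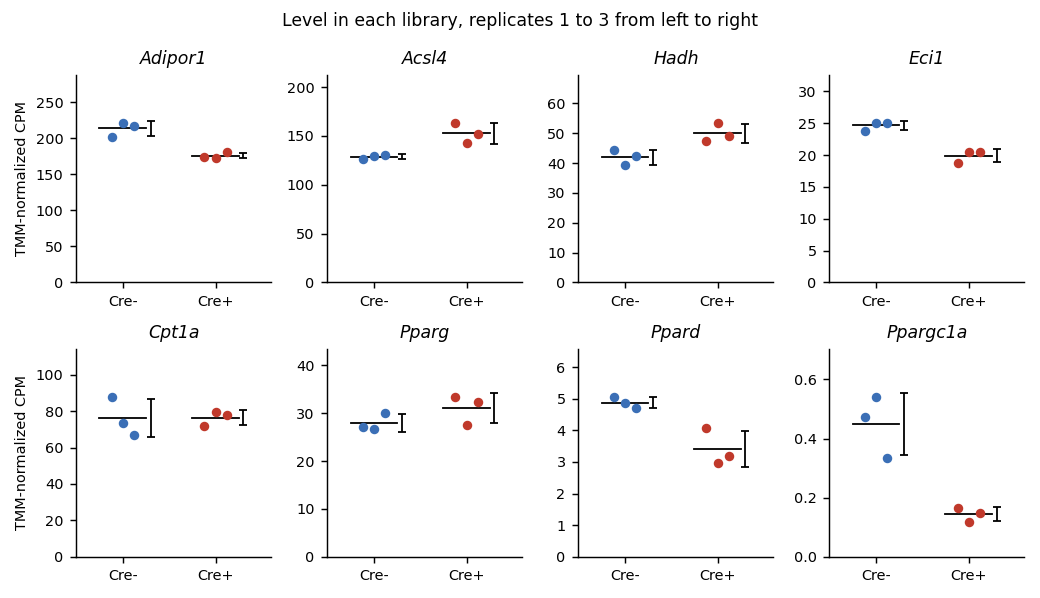
TMM-normalized CPM (vertical axes, each from 0) in the 3 Cre− (blue) and 3 Cre+ (red) libraries, replicates 1 to 3 from left to right, with the mean as a line and the SD as a bar, for the 4 members called and 4 regulators and shuttle genes that were not. Adipor1 and Eci1 are lower and Acsl4 and Hadh higher in every Cre+ library, Cpt1a and Pparg overlap, and Ppargc1a was below the expression filter.

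The 3 PPARs, far apart in level per kilobase of exon, were not called or not tested. Pparg was at 27.1, 26.7 and 30.0 CPM in Cre− against 33.4, 27.6 and 32.4 CPM in Cre+ cells, with overlap between the groups. The estimated log2 fold change was 0.16 (SE 0.08, 95% interval -0.02 to 0.33, adjusted p = 0.33 in edgeR's test), and it was 0.10 without Cre+ replicate 1 and 0.23 without Cre+ replicate 2. Ppard, a receptor with many fatty acid ligands and broad expression, was at 5.06, 4.86 and 4.72 CPM in Cre− against 4.07, 2.98 and 3.17 CPM in Cre+ cells. Every Cre+ library was lower, by unequal amounts, and the log2 fold change of -0.52 (SE 0.16, 95% interval -0.85 to -0.18) was the most negative among the members tested. It missed the threshold (adjusted p = 0.077 in edgeR's test), and passed it with DESeq2's test (adjusted p = 0.035) and without Cre+ replicate 1 (log2 fold change -0.67, adjusted p = 0.047 in edgeR's test). Ppara was below the filter, with 27, 18 and 11 counts in Cre− and 13, 10 and 13 counts in Cre+ libraries. These amount to 0.206 ± 0.0954 and 0.117 ± 0.0102 CPM of the library totals, which overlapped (exact 2-sided permutation test, p = 0.2, where 3 cultures against 3 cannot give less than 0.1).

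The coactivators, which bind PPARs and switch on mitochondrial genes, were at 2.51 (Ppargc1b) and 0.0682 (Ppargc1a) CPM per kb in Cre− cells. Ppargc1b was at 12.4, 8.84 and 8.83 CPM in Cre− against 10.9, 9.36 and 11.0 CPM in Cre+ cells. The groups overlapped, at 0.06 (SE 0.14) on the log2 scale. Cre− replicate 1 was the highest of the 6 libraries, and the log2 fold change was 0.23 without it. Ppargc1a was below the filter, with 41, 50 and 30 counts in Cre− and 18, 11 and 15 counts in Cre+ libraries. All Cre+ libraries were lower, at 0.142 ± 0.0228 against 0.442 ± 0.106 CPM of the library totals, a log2 ratio of -1.64 (exact 2-sided permutation test, p = 0.1, the smallest possible). With looser filters on low counts all 45 members were tested. Ppargc1a was not called there, at log2 fold changes of -1.555 without a filter and -1.59 with edgeR's filterByExpr. Genes below the filter together held 0.270% to 0.285% of the counts in Cre+ and 0.336% to 0.444% in Cre− libraries, also without overlap, and the part of this difference in the value of Ppargc1a was not tested.

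Of the 2 members grouped here as PPAR target genes, 1 was tested and was not called. Genes that PPARs activate but that stand under a step of the pathway are not counted in this group. Angptl4, a secreted inhibitor of lipoprotein lipase, was at 52.0, 52.1 and 51.4 CPM in Cre− against 46.5, 46.4 and 46.3 CPM in Cre+ cells. The libraries of each group lay within 1 CPM of each other and the groups were apart, but the test shares its estimate of spread between genes, and the log2 fold change of -0.16 (SE 0.06, 95% interval -0.28 to -0.04) had an adjusted p of 0.12 in edgeR's test. Pdk4, the kinase that turns pyruvate oxidation down when fat is burnt, was barely detected, with 11, 2 and 12 counts in Cre− and 11, 11 and 7 counts in Cre+ libraries (exact 2-sided permutation test, p = 1).

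Promoters of 38 members, in 44 windows of 300 bases (250 before to 50 after a RefSeq start, GRCm38.p6), were searched on both strands for AGGTCA, the hexamer that PPARs and REV-ERBα bind as a half-site. It was found in 6 windows, or 13.6%, of Acadm, Acadvl, Cpt1a, Echs1 and Pparg, where 16.3% of all 32851 promoters hold it. None of these 5 genes was called, where 9.52% of the members tested and 5.07% of all genes tested were called. A link between the half-site and change was not tested. The paired forms AGGTCANAGGTCA, used by PPARs with retinoid X receptors, and AGGTCANNAGGTCA, used by REV-ERBα, were in 13 and 3 of all promoters and in no member's window, and every paired form also counts as a half-site. Such a match is a description of letters and not of binding. Adipor1 has a second window, chr1:134415414-134415713, which also lacks the half-site. The first window of Adipor1, the member with the smallest p-value, and the windows of the rising member with the smallest p-value and of Cpt1a, which has the half-site, are shown 5′ to 3′ on the strand of the gene, with the half-site (here as its reverse complement, starting 94 bases before the start) in capitals.
Adipor1, plus strand, chr1:134415128-134415427: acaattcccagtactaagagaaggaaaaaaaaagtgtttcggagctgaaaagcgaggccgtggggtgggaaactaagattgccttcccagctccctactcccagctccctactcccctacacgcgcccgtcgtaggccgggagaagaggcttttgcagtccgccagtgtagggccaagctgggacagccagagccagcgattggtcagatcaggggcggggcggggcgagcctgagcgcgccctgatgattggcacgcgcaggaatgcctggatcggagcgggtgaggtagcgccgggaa
Acsl4, minus strand, chrX:142390486-142390785: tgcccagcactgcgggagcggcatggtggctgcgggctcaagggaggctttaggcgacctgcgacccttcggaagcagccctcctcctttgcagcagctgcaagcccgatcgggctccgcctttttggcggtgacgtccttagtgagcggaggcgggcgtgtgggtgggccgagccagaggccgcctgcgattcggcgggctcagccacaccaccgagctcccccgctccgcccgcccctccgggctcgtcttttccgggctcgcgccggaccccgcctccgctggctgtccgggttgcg
Cpt1a, plus strand, chr19:3323051-3323350: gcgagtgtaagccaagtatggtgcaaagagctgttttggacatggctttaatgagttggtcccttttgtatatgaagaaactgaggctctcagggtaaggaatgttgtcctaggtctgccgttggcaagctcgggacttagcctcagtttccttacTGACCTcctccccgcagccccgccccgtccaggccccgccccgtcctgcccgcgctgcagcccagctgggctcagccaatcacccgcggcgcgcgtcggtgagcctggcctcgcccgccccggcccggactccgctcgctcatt

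A list of 79 other genes of fatty acid uptake, lipolysis, oxidation, ketone metabolism and PPAR signalling was tested in the same fit. Of 63 tested, 3 were called (4.76%, beside 5.07% of all genes), 1 higher and 2 lower, and the median was 0.02 on the log2 scale. Lpl, which frees fatty acids from lipoproteins, rose from 3844 ± 65.3 to 4283 ± 18.2 CPM, a log2 fold change of 0.16 (SE 0.03, adjusted p = 0.012 in edgeR's test). Rxra, the partner of the PPARs, fell by 0.29 on the log2 scale (SE 0.08, adjusted p = 0.046 in edgeR's test), from 33.2 ± 1.39 to 27.1 ± 2.65 CPM. The call of Lpl was lost without Cre− replicate 3, and that of Rxra was lost in each of the 6 fits that left out 1 library.

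**Figure D5:**
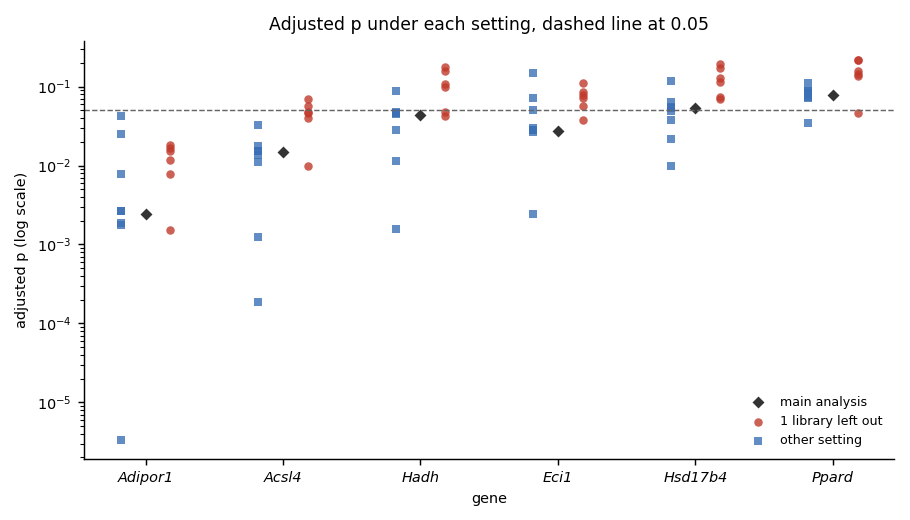
Adjusted p-value on a log scale (vertical axis) of 6 members (horizontal axis) in the analysis reported (black diamonds), with 1 library left out (red circles) and in the 8 other settings (blue squares), with the threshold of 0.05 dashed. Adipor1 lies below the line throughout, Acsl4 in 12 of 14 alternatives, Hadh in 9 and Eci1 in 6, whereas Hsd17b4 and Ppard lie below it in 4 and 2.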

How the data were processed

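The deposited counts are unnormalized and unfiltered read numbers for each Ensembl gene, which the authors made on GRCm38. Their processing notes name STAR 2.7.9a and featureCounts 2.0.3. The CPM and FPKM values, deposited by the authors beside them, are these counts per library total and per gene length, and were read to check their unit. The filter used CPM computed from the counts over the library totals. Libraries held 87545868 to 110909129 counts. Symbols came from GENCODE M21 (55227 of 55487 genes matched by identifier, and all 45 members). After removal of 356 ribosomal RNA genes, the 11429 genes that exceeded 1 CPM in 4 libraries or more entered the test, a filter taken from the methods of the study.

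Group membership follows the genotype labels. Groups were compared with edgeR 4.0.16 (quasi-likelihood test, R 4.3.3) with TMM factors of 0.986 to 1.01, no covariates, Benjamini-Hochberg adjustment over all genes tested and a threshold of 0.05. SE is the log2 fold change over the square root of F, and intervals are 95% from its degrees of freedom. Members below the filter were compared by exact 2-sided permutation. The method named by the study, limma voomWithQualityWeights (limma 3.58.1), DESeq2 1.42.0, other scalings, filters and thresholds, the replicate number as a block and the omission of each library were alternatives. Their calls were not compared with the gene list of the study. Similar transcripts were searched with blastn 2.17.0, and promoters came from RefSeq (38 of 45 members matched). The scripts were tested on simulated data. There, 15 of 50 genes changed 1.25-fold and 44 of 50 changed 1.5-fold were called, with 11 unchanged genes, so small changes were often missed. The simulation gave every gene the same dispersion and left out the difference between the groups in the number of genes with counts. Its rates may therefore not hold for the data.

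Members and lists were chosen with earlier results of these data known. Genes with full values are the members called, Cpt1a, the PPARs and their coactivators, the 3 largest rises and 3 largest falls among members not called, members below the filter and the other pathway genes called, of which 1 is not reported here. Members outside this rule, with their values, are given to describe their step of the pathway.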

Additional observations from a re-analysis of the deposited data

How the results depend on the processing

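Members called, 4 in the analysis reported, were 2 with the replicate number as a block (Adipor1 and Acsl4), 2 to 3 when 1 library was left out, 7 at an adjusted p of at most 0.10 and 1 at 0.01. The cultures with the same number did not deviate together (correlations of 0.01, -0.03 and -0.06), so the numbers were not read as pairs. DESeq2's test gave 6 members, library totals 5, limma's voomWithQualityWeights 4 and no filter on low counts 6, of which 5 were higher. Without that filter the median log2 fold change of all genes moved to -0.20, that of the members to 0.10, 32 of the 45 members lay above 0 and Eci1 was not called. Other pathway genes called, 3 in the analysis reported, were 5 with DESeq2's test, 6 without a filter and 1 to 3 when 1 library was left out. Over all genes, 579 in the analysis reported became 890 with DESeq2's test (222 genes had no adjusted p), 1528 without a filter (851 higher, 677 lower) and 317 to 448 when 1 library was left out. When 1 library was left out, 18 to 26 of the 42 members lay above 0 (25 in the analysis reported), and among the genes given with full values 3 that were never called changed sign, Cpt1a (-0.080 to 0.11), Ppargc1b (-0.026 to 0.23) and Acsl3 (-0.012 to 0.33). No called member reversed. The causes of these moves were not tested, beyond the smaller number of libraries in the fits that omit one. At this depth Ppara and Pdk4, with 2 to 27 counts per library, are measured too coarsely to rank the groups.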
